A study of Saccharomyces cerevisiae with 9 samples.

Results

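The galactose and sucrose genes of budding yeast are GAL1, GAL2, GAL3, GAL4, GAL7, GAL10, GAL80 and SUC2, listed by name as the genes for galactose uptake, breakdown and control and for sucrose hydrolysis. Of the 8 genes, 7 had a probe set in the annotation used here, out of 5449 genes measured in all, and each of the 7 had 1 probe set. GAL4 had no probe set named for it and was not analysed here. Gene expression was measured on Affymetrix Yeast_2 arrays, 1 array per culture, in the haploid strain BY4742 (wild type, cultures 1 to 6) and in BY4742 with LOS1 knocked out (cultures 7 to 9). Los1 exports tRNA from the nucleus, and the study asked what acts on lifespan downstream of it in cells that were not nutrient-restricted. All cultures were shaken at 225 rpm and 30 °C in YEPD, a rich medium with glucose, and harvested once they reached an OD600 of 0.5. All were lysed in a buffer that held cycloheximide, an inhibitor of translation. The knockout arrays carry URA3 in their titles, and both groups share the BY4742 background. The labels' protocols give 3 isolates per strain, with the wild-type ones grown in duplicate, and do not state which wild-type arrays come from one isolate. P-values therefore measure the spread between cultures, some of which share an isolate.

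Yeast takes up galactose through the permease Gal2 and converts it to glucose 1-phosphate by the Leloir pathway, in which Gal1 phosphorylates galactose and Gal7 and Gal10 pass the sugar through a nucleotide-linked exchange. The activator Gal4 switches these genes on, Gal80 holds Gal4 back, and Gal3, a relative of Gal1 without its kinase activity, relieves Gal80 when galactose is present. In glucose medium the enzyme genes are repressed. SUC2 encodes invertase, which splits sucrose outside the cell, and it too is under glucose repression.

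The strain labels held at the altered loci. LOS1 (YKL205W) lay at 11.11 ± 0.16 on the log2 scale in wild type (SD, n = 6) and under the background level on 3 of 3 deletion arrays, a drop of at least 84.1-fold (adjusted p = 4.79e-10 by limma). URA3 (YEL021W) was under background on 6 of 6 wild-type arrays and at 10.88 ± 0.04 in the deletion (SD, n = 3), which makes it at least 72.8-fold higher there (adjusted p = 2.06e-11 by limma). The groups thus differ at URA3 as well as LOS1, and effects of these changes cannot be told apart. The background level is the 95th percentile of the array's fission yeast probe sets, 4.68 to 4.74 on single arrays. BY4742 is of mating type α, and its 4 α-cell markers had wild-type means of 12.02 (SAG1) to 13.83 (MF(ALPHA)1). The 6 a-cell markers were also above background, at 5.31 (AGA2) to 7.69 (STE6). Of the 10 markers 0 passed between the groups by limma, with adjusted p from 0.0757 for STE3 to 0.922 for SAG1. Unadjusted, 3 α-cell or a-cell markers were under 0.05 by limma, as were 1199 of all 5449 genes.

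In the deletion, the galactokinase gene GAL1 was lower and the transferase gene GAL7 and the repressor gene GAL80 were higher. Of the 7 genes, 2 rose and 1 fell by limma at an adjusted p under 0.05, while 5.52% of all genes passed, 2.62% upward and 2.9% downward. The changes were small: 1.28-fold for GAL1, 1.27-fold for GAL7 and 1.14-fold for GAL80. GAL2, GAL3, GAL10 and SUC2 did not pass. The median difference of the 7 genes was 0.13, against -0.01 for all genes. Of the 7 differences 6 were above 0, as were 2467 of all 5449. The 6 include GAL2 at 0.02, whose sign turned in some fits. The calls depended on single arrays and on which wild-type arrays share an isolate. Between 0 and 2 of the genes passed in fits that left out 1 array. With the wild-type arrays paired as isolates in all 15 possible ways, 0 to 3 passed, and the largest adjusted p was 0.0733 for GAL1, 0.0509 for GAL7 and 0.0759 for GAL80. All 3 passed only in pairings whose paired arrays had a correlation below 0. A fit chosen after seeing the data left out wild-type cultures 1 and 4, and there GAL7 was the 1 gene that passed.

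**Figure D1:**
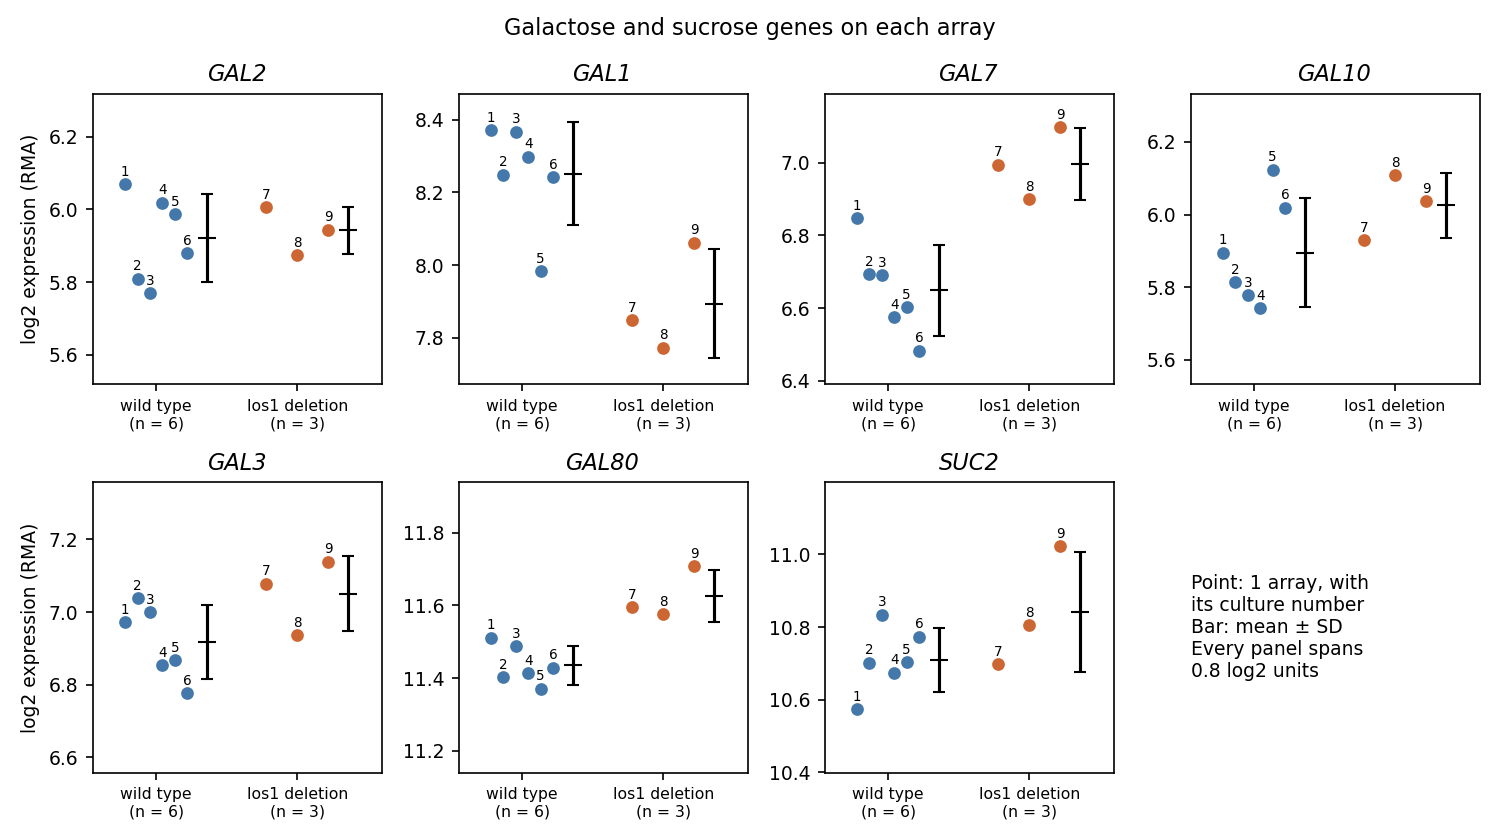
Log2 expression (RMA, vertical axis) of 7 galactose and sucrose genes on each array, wild type in blue (n = 6) and los1 deletion in orange (n = 3), with culture numbers and bars for mean ± SD. The 3 deletion arrays lie above all 6 wild-type arrays for GAL7 and GAL80, while for GAL1 deletion culture 9 at 8.06 lies above wild-type culture 5 at 7.98.

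GAL2 (YLR081W) encodes the galactose permease, a member of the hexose transporter family. It lay at 6.07, 5.81, 5.77, 6.02, 5.99 and 5.88 in wild-type cultures 1 to 6 and at 6.01, 5.88 and 5.94 in deletion cultures 7 to 9. The deletion arrays fell inside the wild-type range, which ran from culture 3 to culture 1. The difference was 0.02 (95% interval -0.14 to 0.18, limma adjusted p = 0.898), and its sign turned in some alternative fits (-0.01 to 0.11).

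GAL1 (YBR020W), the galactokinase that starts the pathway, lay at 8.37, 8.25, 8.37, 8.30, 7.98 and 8.24 in wild-type cultures 1 to 6 and at 7.85, 7.77 and 8.06 in deletion cultures 7 to 9. Culture 5 was the low one among the wild-type arrays, and the groups overlapped only through it and deletion culture 9. GAL1 fell by 0.36 on the log2 scale, from 8.25 ± 0.14 (SD, n = 6) to 7.89 ± 0.15 (SD, n = 3), with a 95% interval of -0.56 to -0.16 (limma adjusted p = 0.0489, exact permutation p = 0.0238). The exact permutation p did not pass after adjustment over the 7 genes (0.0556). That test treats wild-type arrays that share an isolate as independent. Among 5449 genes the limma p of GAL1 ranked 287. The call was lost in 7 of the 9 fits that left out 1 array, with differences from -0.44 to -0.30. In bulk RNA a lower level in every cell and a smaller share of cells with the transcript cannot be told apart.

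GAL7 (YBR018C), which encodes the uridylyltransferase that follows Gal1, moved the other way. It lay at 6.85, 6.69, 6.69, 6.57, 6.60 and 6.48 in wild-type cultures 1 to 6 and at 6.99, 6.90 and 7.10 in deletion cultures 7 to 9. Every deletion array was above every wild-type array, of which culture 1 came closest. GAL7 rose by 0.35, from 6.65 ± 0.13 (SD, n = 6) to 6.997 ± 0.10 (SD, n = 3), with a 95% interval of 0.18 to 0.52 (limma adjusted p = 0.0277, exact permutation p = 0.0119, the smallest that 84 assignments of the arrays allow). Adjusted over the 7 genes, the exact permutation p was 0.0417. By limma GAL7 passed in 5 of the 9 fits that left out 1 array, where the difference ran from 0.30 to 0.40. The fits without wild-type culture 4 or without deletion culture 7, 8 or 9 lost the call (adjusted p = 0.0599, 0.0818, 0.0516 and 0.128).

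GAL10 (YBR019C) lies between GAL7 and GAL1 in the annotation (assembly R64) and encodes the epimerase of the pathway. It lay at 5.90, 5.81, 5.78, 5.74, 6.12 and 6.02 in wild-type cultures 1 to 6 and at 5.93, 6.11 and 6.04 in deletion cultures 7 to 9. Wild-type culture 5 lay above every deletion array, culture 6 among them and cultures 1 to 4 below them. The difference was 0.13 (95% interval -0.06 to 0.32) and did not pass (limma adjusted p = 0.404). GAL2 and GAL10 lay closest to the background level of the 7 genes, where RMA compresses differences. All 7 were above background on 9 of 9 arrays. The wild-type means of GAL2, GAL3, GAL7 and GAL10 lay within the range of the a-cell markers in this α strain, 5.31 to 7.69. A value above background is therefore not by itself evidence of expression. The fission yeast probe sets named gal1, gal7 and gal10, which served among the background probe sets, read 2.92 to 4.06 over the 9 arrays.

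Of the regulators, GAL80 (YML051W) passed the test and GAL3 (YDR009W) did not. GAL80 encodes the inhibitor that binds Gal4, and it lay at 11.51, 11.40, 11.49, 11.41, 11.37 and 11.43 in wild-type cultures 1 to 6 and at 11.60, 11.58 and 11.71 in deletion cultures 7 to 9. The groups did not overlap, although deletion culture 8 was only just above wild-type culture 1. GAL80 rose by 0.19, from 11.44 ± 0.05 (SD, n = 6) to 11.63 ± 0.07 (SD, n = 3), with a 95% interval of 0.09 to 0.30 (limma adjusted p = 0.0446, exact permutation p = 0.0119). Adjusted over the 7 genes, the exact permutation p was 0.0417. The wild-type SD of GAL80 was smaller than that of most genes, with 16.5% of genes below it. The call was kept in 1 of the 9 fits that left out 1 array, the one without wild-type culture 1 (adjusted p = 0.0483). GAL7 and GAL80 were thus 2 of 7 genes with no overlap between the groups, both higher in the deletion, against 12.6% of all genes in either direction and 5.19% upward.

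GAL3 encodes the galactose sensor. It lay at 6.97, 7.04, 6.999, 6.85, 6.87 and 6.78 in wild-type cultures 1 to 6 and at 7.08, 6.94 and 7.14 in deletion cultures 7 to 9. Deletion cultures 7 and 9 lay above the wild-type range and culture 8 inside it. The difference of 0.13 (95% interval -0.02 to 0.28) did not pass (limma adjusted p = 0.285).

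SUC2 (YIL162W), the invertase gene, lay at 10.57, 10.70, 10.83, 10.67, 10.70 and 10.77 in wild-type cultures 1 to 6 and at 10.70, 10.80 and 11.02 in deletion cultures 7 to 9. Only deletion culture 9 lay above the wild-type range. The difference of 0.13 (95% interval -0.04 to 0.30) did not pass (limma adjusted p = 0.339), and it was 0.04 without culture 9. The interval's lower bound of -0.04 lies above the upper bound of GAL1's interval, -0.16. The same held for GAL2, GAL3, GAL7, GAL10 and GAL80, and comparing intervals is not a test of unequal change.

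**Figure D2:**
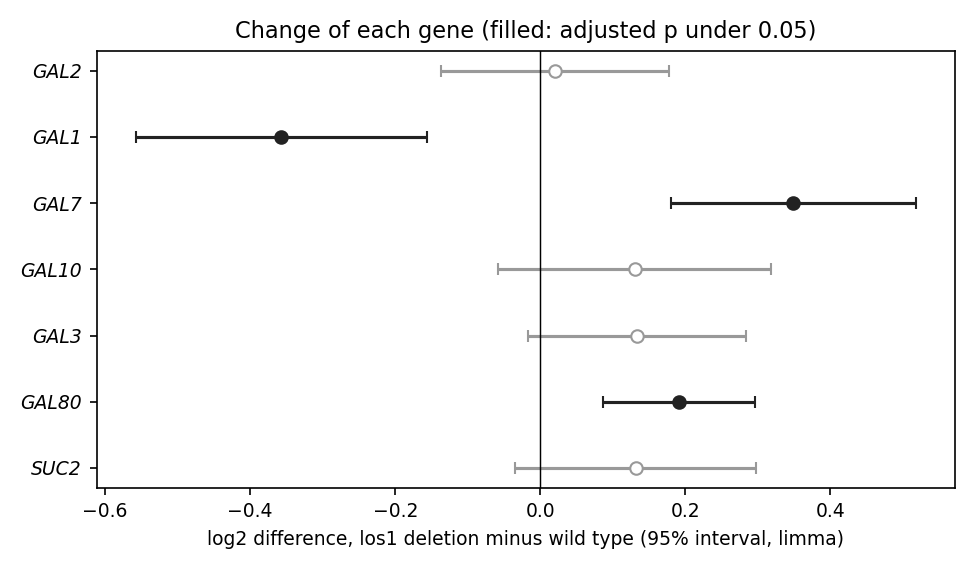
Log2 difference (los1 deletion minus wild type, horizontal axis) of each gene with its 95% interval from limma, filled where the adjusted p was under 0.05. GAL1 at -0.36 lies left of 0, GAL7 at 0.35 and GAL80 at 0.19 lie right of it, and the other 4 intervals include 0.

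Whether genes changed by unequal amounts was tested on within-array differences, which cancel any shift common to both genes on an array. All 21 pairs of the 7 genes were compared by a 2-sided exact permutation test, which treats arrays that share an isolate as independent. Of these, 5 pairs reached the smallest possible p of 0.0119, 8 were under 0.05 unadjusted, and 0 were under 0.05 after Benjamini-Hochberg adjustment, since the 5 leading pairs stood exactly at 0.05.

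The widest gap of the 21 was between GAL1 and GAL7, which flank GAL10. The change of GAL1 minus that of GAL7 was -0.71 ± 0.09 (SE). Relative to the wild-type mean, GAL1 minus GAL7 ran from -0.22 (culture 5) to 0.15 (culture 6) on the wild-type arrays and was -0.75, -0.73 and -0.64 in deletion cultures 7, 8 and 9. The gap between the groups was wider than either group's own range, and it ran from -0.75 to -0.68 when 1 array was left out. The change of GAL1 minus that of GAL80 was -0.55, minus that of GAL3 -0.49 and minus that of SUC2 -0.49. In each of these pairs, as for GAL7, the groups did not overlap, and the adjusted p of 0.05 did not pass. Against GAL10 the difference was -0.49 but the groups overlapped (exact p = 0.0595, adjusted p = 0.139).

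GAL3 and GAL7 kept close to each other across the wild-type cultures. Their within-array difference had an SD of 0.08 there, the smallest of the 21 pairs and below the SD of 0.10 for GAL3 and 0.13 for GAL7 alone. The median wild-type SD of a single gene was 0.09. The change of GAL3 minus that of GAL7 was -0.22, with -0.19, -0.23 and -0.23 in cultures 7, 8 and 9 against -0.14 to 0.08 in wild type (exact permutation p = 0.0119, adjusted p = 0.05, not under the threshold). For GAL7 and GAL10, neighbouring enzyme genes, the difference in change did not pass either (0.22 ± 0.14 SE, exact permutation p = 0.167, adjusted p = 0.292).

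**Figure D3:**
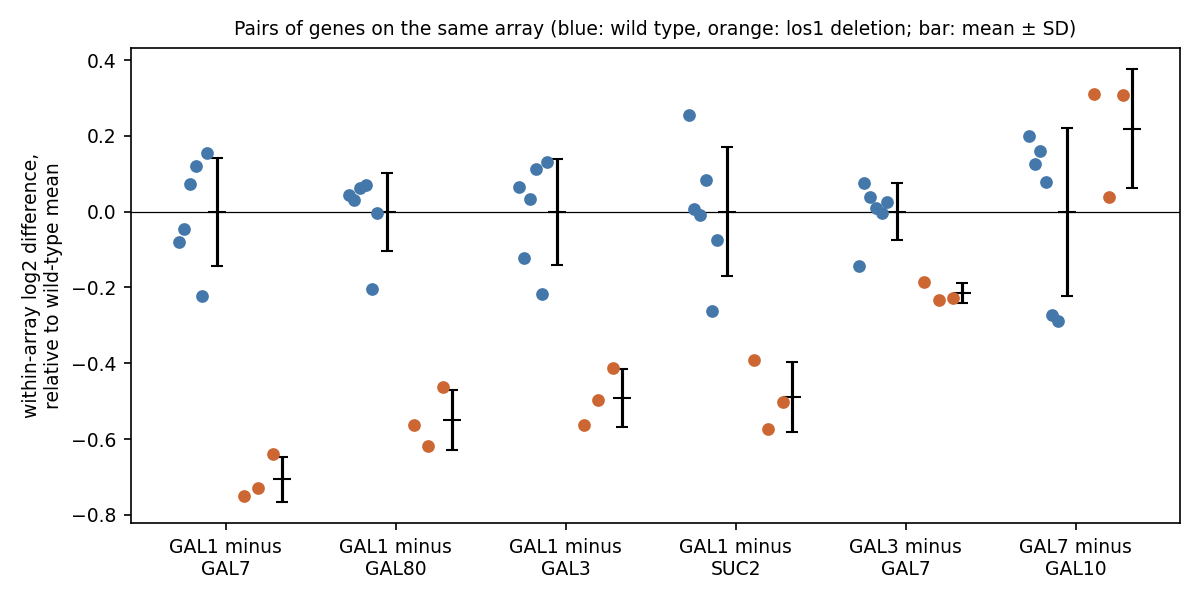
Within-array log2 difference of 6 pairs of genes (vertical axis), relative to its wild-type mean, in wild type (blue, n = 6) and los1 deletion (orange, n = 3), with bars for mean ± SD. GAL1 minus GAL7 lies between -0.75 and -0.64 on the deletion arrays and between -0.22 and 0.15 on the wild-type arrays, while GAL7 minus GAL10 overlaps between the groups.

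Other genes bound by Gal4 and the genes that control glucose repression were set beside these, from lists that were written with earlier results of these data known. Of 4 other genes that Gal4 binds, 2 fell and 0 rose, while 2.9% of all genes fell and 2.62% rose. The median difference of the 4 was -0.16 against -0.01 for all genes. MTH1, which helps repress the hexose transporter genes, fell by 1.34 on the log2 scale, from 9.94 ± 0.59 (SD, n = 6) to 8.60 ± 0.14 (SD, n = 3, limma adjusted p = 0.0292). GCY1, an aldo-keto reductase gene, fell by 0.20 (limma adjusted p = 0.0292), and its call was lost without wild-type cultures 1 and 4 (difference -0.17, adjusted p = 0.102). MTH1 lost its call in 4 and GCY1 in 6 of the 9 fits that left out 1 array.

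None of the 3 genes that carry the pathway's product into glycolysis and back to the sugar nucleotide passed by limma. Of the 3, 1 was under 0.05 unadjusted, as were 1199 of all 5449 genes. PGM2, the main phosphoglucomutase gene, had a difference of -0.54 with no overlap between the groups (limma adjusted p = 0.0579). It was highest in wild-type cultures 1 and 4, at 9.66 and 9.56, and lowest in the deletion, at 8.71, 8.68 and 8.79. It did pass without those 2 cultures (-0.37, adjusted p = 0.0269), with array weights (adjusted p = 0.0255), with a trend and robust prior (adjusted p = 0.0472) and without culture 5 (adjusted p = 0.0274). PGM1, the minor form, had a difference of 0.07 (adjusted p = 0.566).

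In 5 lists of coactivator, repressor, remodeller and glucose-signalling genes, none passed with all 9 arrays weighted equally in limma (0 of 46 genes). GAL4, which was not analysed, is not among the 46. Over all genes 5.52% passed. Unadjusted, 5 of the 46 were under 0.05, as were 1199 of all 5449 genes. Among 12 Gal4 coactivators (Mediator and SAGA subunits), the smallest p belonged to SPT20 with 0.16 and GAL11 with -0.18 (adjusted p = 0.0893 and 0.0929). Among 12 genes of the Snf1 kinase pathway, which lifts glucose repression, REG2, a phosphatase regulator, had -0.76 and SIP1, a kinase subunit, -0.12 (adjusted p = 0.106 and 0.171). The 8 glucose repressor genes were led by MIG1 with -0.29 and MIG2 with -0.36 (adjusted p = 0.0959 and 0.232). Of the 8 SWI/SNF remodeller genes, on which SUC2 depends, SNF11 had -0.15 and SNF12 -0.07 (adjusted p = 0.29 and 0.432). The 6 glucose sensor genes were led by GRR1 with -0.12 and YCK1 with 0.08 (adjusted p = 0.415 and 0.453). Some of these genes passed in other limma fits: REG2 without cultures 1 and 4 (-0.45, adjusted p = 0.0252), MIG1 and GAL11 without culture 5 (adjusted p = 0.0325 and 0.036), and MIG1 and SPT20 with array weights (adjusted p = 0.0435 and 0.0409). The medians of these 5 lists lay between -0.07 (glucose repressors) and 0.01 (coactivators).

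Genes for other sugars and other glucose-repressed genes leaned lower. Over all genes 2.9% fell and 2.62% rose. Of 9 measured maltose and isomaltose genes, 1 fell and 0 rose, with a median of -0.30. That gene was IMA1, an isomaltase gene, which fell by 0.30, from 7.72 ± 0.12 (SD, n = 6) to 7.43 ± 0.05 (SD, n = 3, limma adjusted p = 0.0349), a call lost in 7 of the 9 fits that left out 1 array and without wild-type cultures 1 and 4 (-0.24, adjusted p = 0.106). The mean of the 9 maltose and isomaltose genes, relative to wild type, was -0.31, -0.36 and -0.19 in deletion cultures 7, 8 and 9. Wild-type cultures 2 and 5, at -0.23 and -0.26, lay below deletion culture 9. Of 17 other glucose-repressed genes 4 fell and 1 rose, with a median of -0.31. The genes that fell were MDH2, HXK1, ADR1 and HXT4, with log2 differences of -1.94, -1.53, -1.32 and -1.27, and SIP4 rose by 0.50 (limma adjusted p = 4.01e-04, 0.0277, 1.28e-04, 0.0446 and 0.0439). MDH2 and ADR1 passed in all 9 fits that left out 1 array, while HXK1 lost its call in 2 of them and HXT4 and SIP4 in 7 each. HXK1 and HXT4 also lost it with a trend and robust prior (adjusted p = 0.0658 and 0.0954). MTH1 and IMA1 lost their calls in the same fit (adjusted p = 0.0653 and 0.052). After repeated quantile normalization IMA1 did not pass either (limma adjusted p = 0.0696). MDH2 makes malate dehydrogenase, HXK1 a hexokinase, HXT4 a hexose transporter, and ADR1 and SIP4 are activators of genes used without glucose. The galactose and sucrose genes, with a median of 0.13, had 2 rises among 7 beside this list's 1 among 17, a contrast for which no test was made. Of the genes that rose, SIP4 (wild-type mean 5.56, deletion mean 6.06) and GAL7 (6.65 and 6.997) lay within the range of the a-cell markers, 5.31 to 7.69. GAL80 lay above it (11.44 and 11.63).

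**Figure D4:**
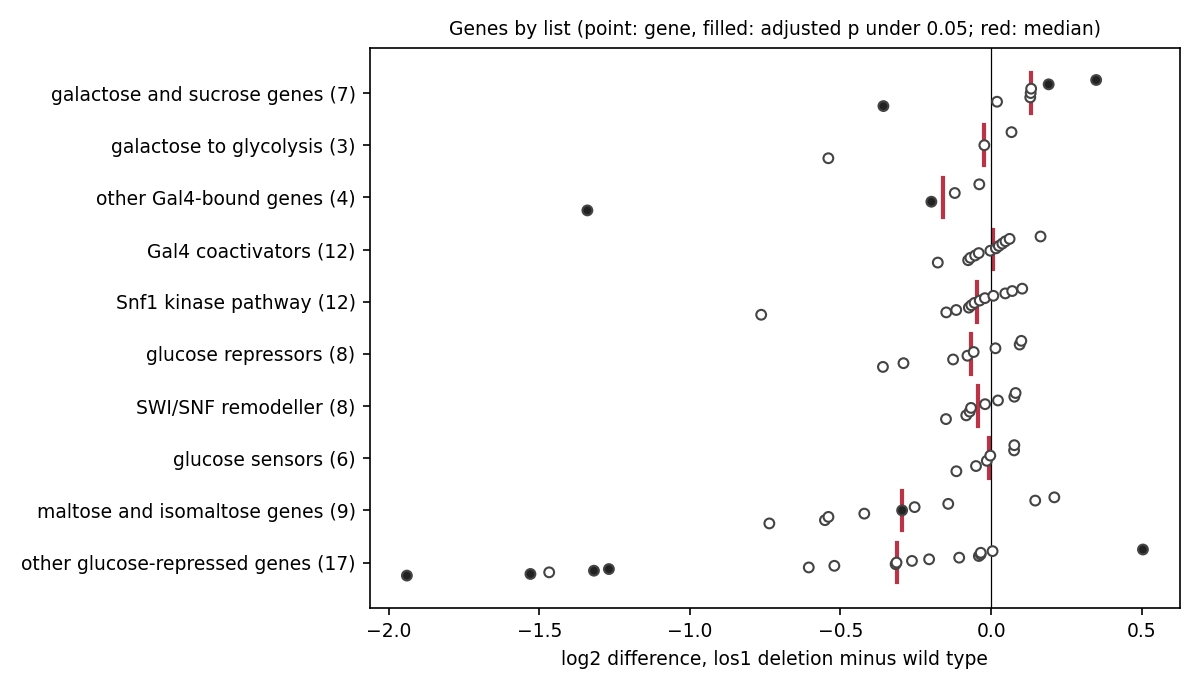
Log2 difference (los1 deletion minus wild type, horizontal axis) of each gene in 10 lists, filled where the limma adjusted p was under 0.05, with the list median in red. The galactose and sucrose genes run from -0.36 to 0.35 with a median of 0.13, while the other glucose-repressed genes run from -1.94 to 0.50 with a median of -0.31.

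The wild-type cultures differed among themselves in glucose-repressed genes, and GAL1 followed this only in part. The mean of the 17 other glucose-repressed genes, relative to wild type, was 0.39 and 0.31 in wild-type cultures 1 and 4, -0.26 and -0.27 in cultures 2 and 5, and -0.10 and -0.07 in cultures 3 and 6. In deletion cultures 7, 8 and 9 it was -0.44, -0.64 and -0.60. GAL1 stood at 0.12 and 0.05 in cultures 1 and 4 and at 0.00 and -0.27 in cultures 2 and 5, so it shared the low value of culture 5 and not that of culture 2. GAL1 was lowest in deletion culture 8, at -0.48, as the list was. GAL7 lay at 0.20 in culture 1 and at -0.07 in culture 4, which share a high list mean, and at 0.25 to 0.45 in the deletion, where the list was lowest. SUC2 was lowest in culture 1, at -0.14. In cultures 1, 4, 2 and 5, in that order, GAL10 stood at 0.00, -0.15, -0.08 and 0.23, and GAL2 at 0.15, 0.10, -0.11 and 0.07. GAL3 stood at 0.05, -0.06, 0.12 and -0.05 there, and GAL80 at 0.08, -0.02, -0.03 and -0.06. The value of GAL1 in culture 5 is flagged below as far from the other wild-type cultures. Without cultures 1 and 4 the difference was -0.32 for GAL1 (limma adjusted p = 0.163), 0.38 for GAL7 (adjusted p = 0.0276) and 0.20 for GAL80 (adjusted p = 0.0919). The part of this variation in the results for GAL1 was not tested.

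**Figure D5:**
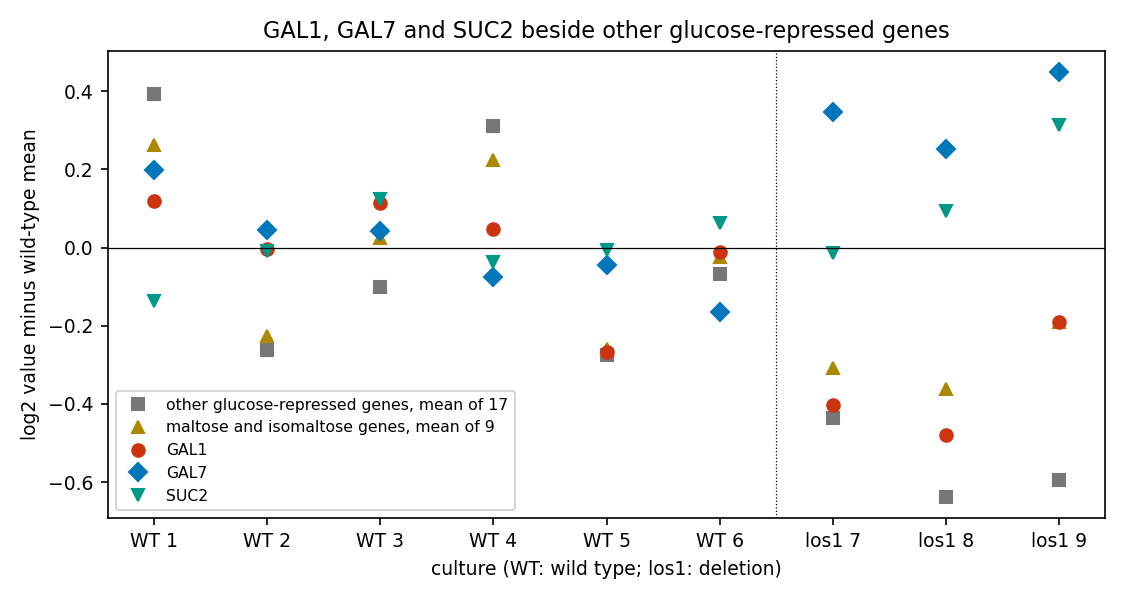
Log2 value minus the wild-type mean (vertical axis) in each culture for GAL1, GAL7, SUC2, the mean of 9 maltose and isomaltose genes and the mean of 17 other glucose-repressed genes. In the deletion cultures GAL1 lies at -0.48 to -0.19, with both list means also below 0, and GAL7 lies at 0.25 to 0.45.

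For each gene the closest patterns over the 9 arrays were sought among 5341 genes above background by Pearson correlation, as a description, since all 9 values share the contrast between the groups. GAL1 was followed most closely by MAM3 (r = 0.98) and YIG1 (r = 0.98), with differences of -0.24 and -0.43 that did not pass (limma adjusted p = 0.0906 and 0.062). Within the 6 wild-type arrays its closest genes were PDS1 and SOG2 (r = 0.99 each), so the closest genes changed with the arrays used. GAL7 was nearest to SPE1 (r = 0.94) and URN1 (r = 0.93), of which URN1 rose by 0.18 (adjusted p = 0.0301) and SPE1 did not pass (0.08, adjusted p = 0.224). GAL80 was nearest to CMR3 (r = 0.97) and STR3 (r = 0.95), which rose by 0.28 and 0.73 (adjusted p = 0.0356 and 0.0019). STR3 is a gene of sulfur amino acid synthesis. GAL3 was nearest to STE2 (r = 0.94) and RPR2 (r = 0.93), GAL10 to YKT6 (r = 0.97) and PMP3 (r = 0.96), and GAL2 to MIR1 and ASG7 (r = 0.91 each). SUC2 was nearest to YFL068W (r = 0.92) and MER1 (r = 0.91), and within wild type to THI3 (r = 0.99) and RPL4B (r = 0.98). The galactose and sucrose genes themselves were left out of this search.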

How the data were processed

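RNA of 6 wild-type and 3 LOS1 deletion cultures was measured on 1 array each. The authors deposited log2 expression for each probe set, computed with RMA according to the submitters' processing notes (version not given in the sources used here). RMA quantile normalizes the arrays, so a difference is measured against the rest of the transcripts, and it compresses differences near background. Depth has no meaning here: the number of arrays limits the precision. Of 10928 probe sets, 7244 named 1 gene, 1 several and 3683 none. By gene ID 5498 matched S. cerevisiae (assembly R64, 12 symbols updated), and the other 1746 named ones were taken as S. pombe and served as background. The brightest probe set per gene left 5449 genes. Groups came from the sample descriptions.

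Differences were tested with limma 3.58.1 (lmFit and eBayes) under R 4.3.3. Tests were 2-sided and p-values were adjusted over all genes by Benjamini-Hochberg. Every adjusted p for a gene comes from such a limma fit, unless an exact permutation test is named. Where a strain lay under background, the fold is a bound, with that group set to the background level of each array. Exact permutation tests used all 84 assignments of the arrays. The script was tested on simulated data.

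The members, lists and tests were chosen with earlier results of these data known. The genes named are the members, LOS1 and URA3, in each list every gene past the threshold or otherwise the 2 with the smallest p, and the 2 closest patterns for each member (over wild type too for GAL1 and SUC2). Marker genes given as the ends of a range were chosen after their values were seen. Alternatives were 2 scalings, dropping dim genes, averaging or testing all probe sets, a robust prior with trend (statmod 1.5.0), array weights, 15 pairings of wild-type arrays as isolates, stricter thresholds and leaving out arrays. MAL12, IMA2, IMA4, MPH3 and HXT6 of the lists, like GAL4, were not analysed here.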

Additional observations from a re-analysis of the deposited data

Results flagged for a closer look

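GAL1 in wild-type culture 5, at 7.98, lay far below the other 5 wild-type cultures, which ran from 8.24 to 8.37. It was the 1 such case among 29 genes whose 6 wild-type values were examined, and chance gives about 5% of groups a sample this far off. Leaving out the lowest wild-type value had to enlarge the fall of GAL1, so the fit without culture 5 is not an independent check. In that fit the difference was -0.41 (limma adjusted p = 0.0081), and the groups no longer overlapped.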

How the results depend on the processing

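All 3 calls (GAL1, GAL7, GAL80) were kept under both other scalings, without dim genes, with probe sets averaged or all tested, with a trend and robust prior and with array weights. They were lost together at an adjusted p of 0.01 (0 higher, 0 lower by limma) and with a minimum of 1.5-fold (0 genes). Unadjusted, 3 of the 7 genes were under 0.05 by limma, as were 1199 of all 5449 genes. Of 15 pairings of wild-type arrays as isolates, 10 gave a correlation between paired arrays below 0, and all 3 genes passed in each of these. A correlation below 0 lowers the standard error of the wild-type mean, so passing there is no check on shared isolates. Those pairings called 308 to 468 of all genes, against 301 in the main fit. In the 5 with a correlation above 0 (0.07 to 0.32), GAL1 passed in 0, GAL80 in 1 and GAL7 in 4, and the pairing with the highest correlation left 0 higher and 0 lower. Leaving out 1 array gave 0 to 2 genes past the threshold, 0 to 2 of them higher and 0 to 1 lower. Without wild-type cultures 1 and 4 there was 1 gene, higher, and 0 lower. Over the 9 other lists 7 genes were lower and 1 higher, with 2 to 13 lower and 0 to 1 higher when 1 array was left out. The count of pairs of genes under an adjusted p of 0.05 in the exact permutation test was 0 with all arrays. It was 0 with averaged probe sets, which changes nothing for genes with 1 probe set. It was also 0 in each comparison that left out 1 array. Fewer assignments raise the smallest possible p there and leave little room for another count, so these zeros are no check. GAL1, GAL7, GAL80, GAL3, GAL10 and SUC2 kept the direction of their differences in all of these fits. The split of calls over all genes was 143 higher and 158 lower, and 175 and 126 after repeated quantile normalization, and the total was 498 with array weights, 126 with deletion culture 8 left out and 478 with wild-type culture 5 left out. The labels name no pairs of cultures across the groups, and no analysis paired or blocked across them was made. Some other genes split the cultures alike in both groups. SAG1 read 11.75, 11.78 and 11.76 in cultures 3, 6 and 9 and 12.02 to 12.21 in the others. CYC8 read 10.27, 10.24 and 10.21 in cultures 2, 5 and 8 and 10.46 to 10.56 in the others. These genes were chosen after their values were seen, and such a grouping was not tested. The cause of the lost calls was not tested.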
